A study of Mus musculus with 3 samples.

Results

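The phagocyte NADPH oxidase is described here through 7 genes of the 16072 named genes in the deposited expression table: Cybb, Cyba, Ncf1, Ncf4, Rac1, Rac2 and Hvcn1. They were chosen by name, for the parts their proteins play in the enzyme, and the table holds all 7. The measurements are RNA-seq values of Ly6G+ myeloid cells from the bone marrow (BM) of C57BL/6 mice. Ly6G is a surface protein of neutrophils and is bound by Gr-1 antibodies. Every mouse carried a subcutaneous graft of B16.F10, a mouse melanoma line, placed 1 week before a vector was injected into muscle. The vector was either AAV-Ctrl, an empty adeno-associated virus (2 libraries, here control 1 and control 2), or AAV-IL-27, which carries mouse Ebi3 and p28 joined in 1 chain under the CAG promoter (1 library, here the IL-27 library). Cells were collected 3 weeks after the vector. The CAG promoter is active in most cell types, so it does not by itself confine production of IL-27 to a tissue. The labels count 4 mice in their text but describe 2 AAV-Ctrl mice and 1 AAV-IL-27 mouse, and the labels give no ages.

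The oxidase makes superoxide from oxygen with electrons taken from NADPH, and neutrophils use it to kill engulfed microbes. At rest its membrane core, a flavocytochrome of gp91phox (Cybb) and p22phox (Cyba), is kept apart from cytosolic organisers, among them p47phox (Ncf1) and p40phox (Ncf4). When a receptor is triggered, p47phox is phosphorylated, the cytosolic proteins dock on p22phox, and a small GTPase, Rac2 in neutrophils and mainly Rac1 in macrophages, joins them. The voltage-gated proton channel encoded by Hvcn1 lets protons follow the electrons, so that the enzyme can go on working. The complex has further components that are not among the 7 genes.

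Values are FPKM, fragment numbers corrected for transcript length and sequencing depth, as the authors deposited them to 2 decimals. FPKM is per length, so that levels of different genes can be set side by side. Differences were taken on log2(FPKM + 1), as the IL-27 library minus the control mean. The added 1 makes the change of low genes look smaller than it is. With 1 IL-27 library there is no replicate error in that group and no test was run. Each difference is set beside the gap between the controls, which shows the spread of the control pair only. Calls were made over the 9130 genes whose mean FPKM reached 1. A gene was called lower or higher where its IL-27 value was at least 0.5 log2 units (1.41-fold) below or above control 1 and control 2 alike. With a control taken as the odd library in place of IL-27, between 10 and 45 genes were called in a direction, against 640 lower and 143 higher genes for the IL-27 library. An odd control had to clear the IL-27 library as well as the other control, so its counts are not a noise level for the IL-27 counts. Depth, read from the spacing of the lowest FPKM values, was about 19100000, 19440000 and 19320000 fragments in control 1, control 2 and IL-27. Neutrophil transcripts dominated every library, and 12 neutrophil markers, led by S100a9 at 73508, 71786 and 68765 FPKM, took 31.5%, 31.3% and 30.9% of all FPKM. Because RNA was taken from bulk cells, fewer cells of a type and less RNA per cell cannot be told apart.

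None of the 7 oxidase genes was called lower (0 of 7, against 7.01% of all genes tested) or higher (0 of 7, against 1.57%). Their log2 differences lay between -0.09 for Ncf4 and 0.04 for Cybb, with a median of 0.01, and the median over all genes tested was -0.01. For each of the 7 the size of the difference was smaller than the gap between the controls, which was so for 34.2% of all genes tested. The IL-27 value lay between the control values for 4 genes (Cybb, Cyba, Ncf1 and Hvcn1), a position held by 19.2% of all genes. It lay below both for Ncf4 and Rac2 (41.9% of all genes) and above both for Rac1 (38.9%). Summed, the 7 genes stood at 3792 and 4059 FPKM in the controls and 3892 in the IL-27 library, or 0.638%, 0.692% and 0.678% of all FPKM. With 1 library against 2, these values describe transcripts of these mice and do not show that IL-27 leaves the genes unaltered.

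**Figure D1:**
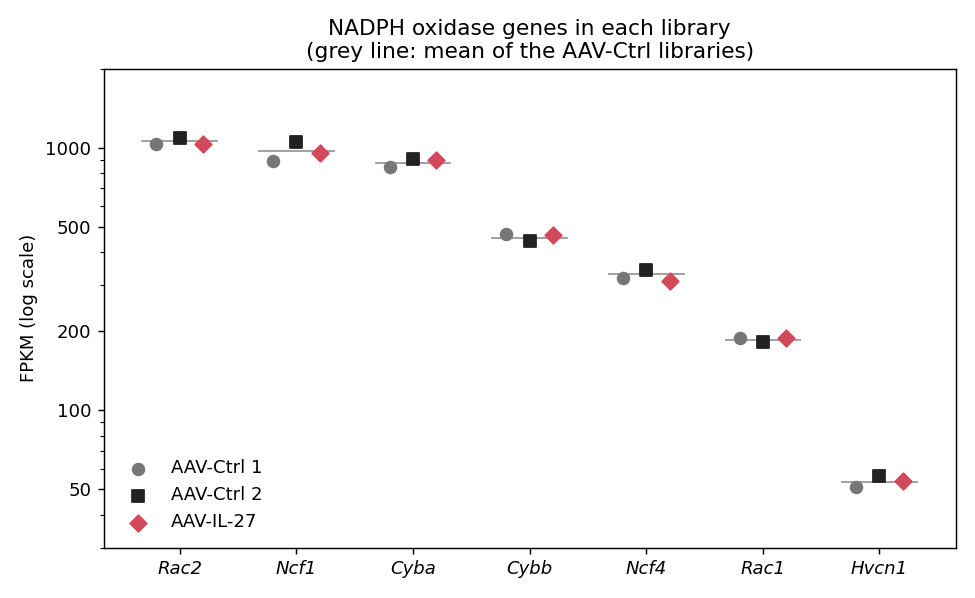
FPKM on a log axis for the 7 oxidase genes, ordered by mean level, with a grey circle for control 1 (AAV-Ctrl 1), a black square for control 2 (AAV-Ctrl 2), a red diamond for AAV-IL-27 and a grey line at the control mean. The order from Rac2 (1029 to 1085 FPKM) down to Hvcn1 (50.9 to 56.2) is the same in the 3 libraries, and each diamond sits on or close to the control pair.

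The membrane core was abundant in every library. Cybb (NCBI Gene 13058; chromosome X from 9435252 to 9487771, minus strand, in GENCODE M21 on GRCm38), the catalytic subunit that carries haem and flavin, had 467.44 FPKM in control 1, 439.30 in control 2 and 465.02 in the IL-27 library. The IL-27 value was 102.6% of the control mean of 453 ± 19.9 (SD, n = 2) and lay inside the control pair, next to control 1. The log2 difference was 0.04, against a gap of -0.09 from control 1 to control 2. Cyba (NCBI Gene 13057; chromosome 8 from 122424776 to 122432930, minus strand), whose product stabilises gp91phox and offers the docking site, had 845.19, 901.41 and 894.12 FPKM in control 1, control 2 and IL-27. This too was inside the control pair, but next to control 2, at 102.4% of the control mean of 873 ± 39.8 (SD, n = 2) and a log2 difference of 0.03. In the protein complex the partners stand in equal number, while the Cyba transcript stood above Cybb 1.81 and 2.05 times in the controls and 1.92 times in the IL-27 library. That ratio does not depend on how a library is scaled, and the IL-27 ratio was also inside the control pair.

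Of the cytosolic organisers, Ncf1 varied most between the controls. Ncf1 (NCBI Gene 17969; minus strand of chromosome 5, 134220053 to 134229625) encodes the subunit whose phosphorylation starts assembly, and it had 885.59, 1053.40 and 951.34 FPKM in control 1, control 2 and IL-27. The controls differed by 0.25 on the log2 scale, the widest gap among the 7 genes, and the IL-27 value fell between them with a log2 difference of -0.02. Ncf4 (NCBI Gene 17972; chromosome 15 from 78244801 to 78262580, plus strand) encodes a subunit that binds a lipid of the phagosome membrane, and it had 318.96, 341.82 and 310.27 FPKM. Its IL-27 value was below both controls, at 93.9% of the control mean of 330 ± 16.2 (SD, n = 2). The log2 difference of -0.09 was the largest in size among the 7 genes, yet 5988 of the 9130 genes tested (65.6%) differed by as much or more, and the step down from the nearer control was 0.04. The Ncf1 transcript stood above Ncf4 2.78, 3.08 and 3.07 times in control 1, control 2 and IL-27. Over the 3 libraries, the genes whose profile was most like that of Ncf4, among 313 genes within a factor of 2 of its level, were Ostf1, Rps25 and Rasgrp4, at distances of 0.004, 0.01 and 0.01 on the log2 scale. A likeness over 3 libraries rests on 3 points.

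**Figure D2:**
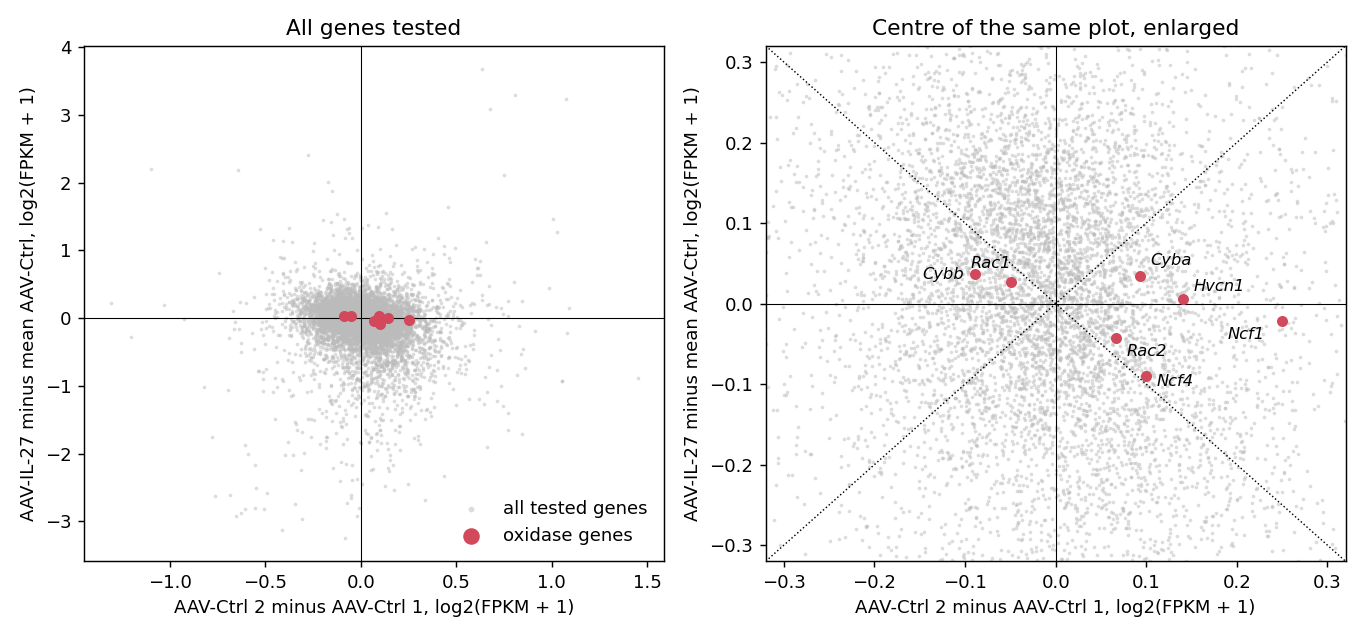
Each point is a gene with a mean FPKM of at least 1, placed by the gap from control 1 to control 2 (x axis) and by the difference of IL-27 from the control mean (y axis), both in log2(FPKM + 1), with the 7 oxidase genes in red and the centre enlarged on the right. The red points lie between the dotted diagonals, on the side where the control gap is larger than the IL-27 difference.

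The GTPases differed from each other far more than between mice. Rac2 (NCBI Gene 19354; chromosome 15 from 78559167 to 78572783, minus strand), the form largely restricted to blood cells, had 1036.18, 1085.37 and 1029.33 FPKM in control 1, control 2 and IL-27, and ranked between 49 and 52 among all named genes. Rac1 (NCBI Gene 19353; chromosome 5 from 143503634 to 143528036, minus strand), which most cell types express, had 188.21, 181.87 and 188.50 FPKM. Rac2 therefore exceeded Rac1 5.51, 5.97 and 5.46 times. The IL-27 value lay just below both controls for Rac2 (log2 difference -0.04) and just above both for Rac1 (0.03), so that their ratio was under both control ratios by a step smaller than the control spread (5.74 ± 0.327, SD, n = 2).

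Rac1 and Rac2 are close relatives, so it was checked how far their fragments can be told apart. Over 579 coding bases, stop codon included, the GENCODE M21 transcripts are identical at 446 (77.0%), and the longest identical run is 29 bases. No 50-base window of the Rac1 transcript occurs in a transcript of another GENCODE gene, and 0.50% of the windows of Rac2 do. The other 5 genes were checked in the same way. Cybb, Cyba, Ncf4 and Hvcn1 share none of their 50-base windows and Ncf1 shares 0.26%. Exons of Ncf1, Rac1 and Hvcn1 overlap an exon of a gene on the opposite strand (Gtf2ird2, Daglb and Tctn1). The libraries were strand-marked, but whether the counting used strand is not given in the sources used here, so these 3 values may include fragments of the partner.

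Hvcn1 (NCBI Gene 74096; chromosome 5 from 122206804 to 122242297, plus strand), the proton channel, was the least abundant of the 7 genes, with 50.87, 56.18 and 53.70 FPKM in control 1, control 2 and IL-27. The IL-27 value was 100.3% of the control mean of 53.5 ± 3.75 (SD, n = 2), and 97.0% of all genes tested differed by as much or more. B cells also express this channel, and B cell markers were lower in the same library: the summed FPKM of 9 markers was 30.7 and 41.0 in the controls and 5.07 in the IL-27 library. None of the 9 was listed at 0, and the part of B cells in the Hvcn1 values was not tested.

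In order of level, the 7 genes ran Rac2, Ncf1, Cyba, Cybb, Ncf4, Rac1 and Hvcn1 in each of the 3 libraries. Between Rac2 and Ncf1, and between Ncf1 and Cyba, the ranges over libraries overlapped, so these neighbours are not separated beyond the spread. The steps from Cyba to Cybb, from Cybb to Ncf4, from Ncf4 to Rac1 and from Rac1 to Hvcn1 were wider than the spread of either gene. At the estimated depth, counting error is small for such abundant transcripts. The half-width of the exact 95% Poisson interval, computed on estimated fragments with the shortest listed transcript, was between 0.78% for Rac2 and 3.83% for Hvcn1, and it covers counting error only. The intervals of the controls did not overlap for any of the 7 genes. The IL-27 interval overlapped that of 1 control for 5 genes, of both controls for Hvcn1, and of neither for Ncf1, which lay between them. Set against the catalytic subunit Cybb within each library, Ncf1 stood at 1.89, 2.40 and 2.05 times and Hvcn1 at 0.109, 0.128 and 0.116 times its FPKM, and in both ratios the IL-27 library was inside the control pair. Depth is therefore not what limits the comparison of these genes, whereas the number of mice does.

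Upstream sequence is shown for Cybb and Ncf1 because motifs bound by interferon regulatory factors and STAT proteins, the factors that IL-27 and interferons act through, occur there, and the factor genes were measured in the same libraries. The RefSeq promoter table (GRCm38.p6) has entries for 3 of the 7 genes, Cybb, Cyba and Ncf1. The 250 bases before the transcript start are printed 5′ to 3′ on the gene's strand, with capitals marking GAAANNGAAA, an interferon-stimulated response element core, and TTCNNNGAA, a STAT gamma-activated site, each searched on both strands:

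Cybb, chrX:9469325-9469574, minus strand: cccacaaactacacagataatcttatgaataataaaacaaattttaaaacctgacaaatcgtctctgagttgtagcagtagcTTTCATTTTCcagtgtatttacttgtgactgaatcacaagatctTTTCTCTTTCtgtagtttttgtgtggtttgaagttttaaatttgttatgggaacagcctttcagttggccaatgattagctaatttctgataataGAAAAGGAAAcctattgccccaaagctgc

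Ncf1, chr5:134229626-134229875, minus strand: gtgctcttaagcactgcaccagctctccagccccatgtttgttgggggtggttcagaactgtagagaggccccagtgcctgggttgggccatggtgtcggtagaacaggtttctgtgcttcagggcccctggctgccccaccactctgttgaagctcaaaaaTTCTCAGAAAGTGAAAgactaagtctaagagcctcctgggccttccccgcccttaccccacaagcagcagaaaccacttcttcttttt

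The Cybb window holds 3 matches to GAAANNGAAA, the nearest beginning 29 bases before the start, and lies inside the longer GENCODE extent of the gene. The Ncf1 window holds 1 match to TTCNNNGAA, beginning 88 bases before the start, which overlaps 1 match to GAAANNGAAA at 82 bases, so that they form a single run of capitals. The Cyba window holds neither. GAGGAA, a core bound by PU.1, was also searched on both strands and occurs in none of the 3 windows. Of all 32851 windows of this length in the table, 2.98% hold GAAANNGAAA, 7.02% TTCNNNGAA and 23.2% GAGGAA. A match is a description of the letters and not evidence of binding.

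Among 14 tested regulators from a list of 16 factors that act on subunit genes, 1 was called lower and 0 higher. This is near the share of all genes (7.01% and 1.57%). The median log2 difference was 0.08. By any amount, 8 were above both controls (38.9% of all genes) and 1 below both (41.9%). The gene called lower was Irf8, an interferon regulatory factor of the monocyte lineage, with 7.49, 7.89 and 4.66 FPKM in control 1, control 2 and IL-27, a log2 difference of -0.62. Spi1, which encodes PU.1, had 588.68, 611.08 and 632.37 FPKM, and Cebpe, needed for late granulocyte maturation, had 119.34, 138.70 and 124.05. Both were near the controls, with log2 differences of 0.08 and -0.05. Cebpb was at 258.98, 231.04 and 319.31 FPKM, 0.38 above the control mean on the log2 scale and short of a call. Irf1, named after its values were seen, was above both controls without being called, with 84.16, 86.04 and 103.53 FPKM and a log2 difference of 0.28. Cybb and Ncf1, whose upstream windows hold the motifs above, had log2 differences of 0.04 and -0.02 in the same comparison.

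Genes that switch the oxidase on were measured along with it. Of 29 genes for assembly and activation, 26 passed the filter on low values, and 0 were called in either direction (7.01% of all genes were called lower and 1.57% higher). Their log2 differences ran from -0.24 to 0.26, with a median of 0.03. By any amount, 14 were above both controls (38.9% of all genes) and 6 below both (41.9%). Arhgdib, which holds Rac proteins in the cytosol, had 2292, 2237 and 2349 FPKM in control 1, control 2 and IL-27. The kinase gene Mapk3 had 308.53, 316.16 and 324.12 FPKM, and the GTPase gene Rap1b had 317.48, 302.67 and 304.26. Cybc1, a chaperone of the flavocytochrome that the table lists as BC017643 and that was singled out after its value was seen, had 46.09, 47.32 and 42.73 FPKM. The widest of these 4 differences was that of Cybc1, at -0.13. Of 12 receptors that trigger the burst, 0 were called and the median was 0.03. Of these receptors, 8 were above both controls by any amount (38.9% of all genes) and 2 below both (41.9%). The integrin chains Itgb2 (990.43, 1003.28 and 1043.38 FPKM) and Itgam (734.37, 737.66 and 744.12) and the formyl peptide receptor Fpr2 (651.25, 653.82 and 657.82) differed from the control mean by 0.07, 0.02 and 0.01. The widest of these receptors, named for that reason, was Clec7a, the receptor for fungal glucan, with 248.34, 186.61 and 339.90 FPKM. It stood 0.66 above the control mean, but the controls themselves differed by 0.41 and the distance from the nearer one was under the threshold. Other NADPH oxidases were at the floor: of 9 listed genes 6 are in the table, 0 passed the filter, and their summed FPKM was 0.14, 0.05 and 0.15.

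**Figure D3:**
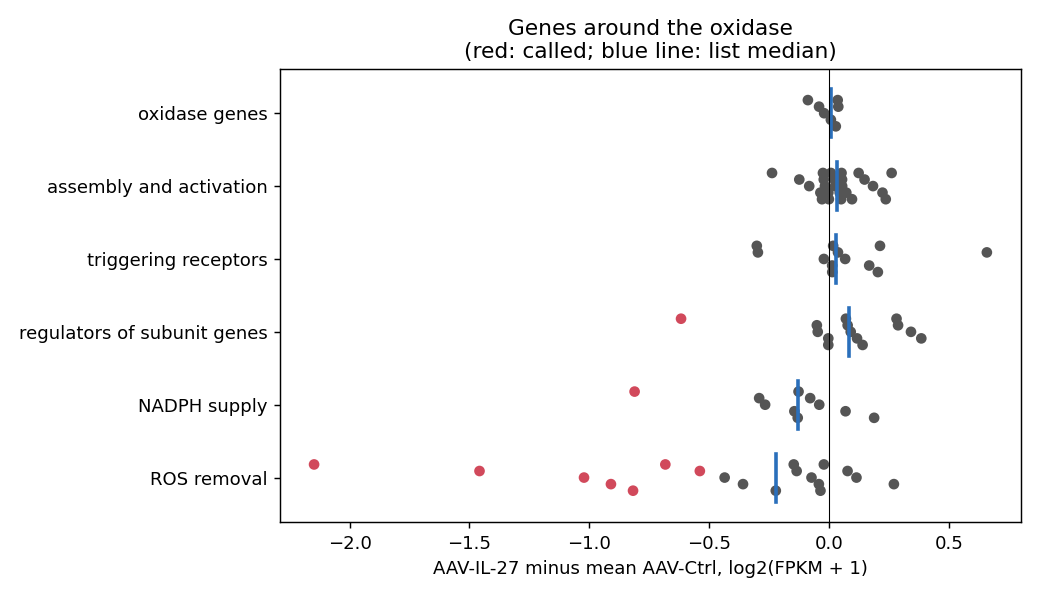
Log2 differences of IL-27 from the control mean, log2(FPKM + 1), for the tested genes of 6 lists, with called genes in red and list medians as blue lines. Oxidase genes cluster at 0, and 7 red points of ROS removal reach to -2.15.

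NADPH, the fuel of the oxidase, comes mainly from the pentose phosphate pathway. Of 10 tested genes of NADPH supply, 1 was called lower and 0 higher, near the share of all genes (7.01% and 1.57%), with a median log2 difference of -0.13. By any amount, 7 were below both controls (41.9% of all genes) and 2 above both (38.9%). The gene called lower was Mthfd1, a folate enzyme, with 1.74, 2.25 and 0.70 FPKM in control 1, control 2 and IL-27. The pentose phosphate enzymes were far more abundant, with Taldo1 at 972.46, 934.14 and 1085 FPKM, Pgd at 676.44, 751.29 and 674.37, and Tkt at 527.49, 561.48 and 528.51. G6pdx, which encodes the NADPH-producing enzyme at the entry of the pathway and was singled out after its values were seen, had 378.70, 359.89 and 306.47 FPKM, below both controls with a log2 difference of -0.27. None of these 4 was called.

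Enzymes that remove reactive oxygen species (ROS) stood apart from the oxidase genes in how many were lower: 7 of 19 were called lower and 0 higher (7.01% and 1.57% of all genes), with a median log2 difference of -0.22. Prdx2, a peroxiredoxin that is a major protein of red cells, had 38.00, 35.89 and 7.56 FPKM in control 1, control 2 and IL-27, a log2 difference of -2.15. Cat, which encodes catalase, had 24.79, 21.72 and 7.81 FPKM, a log2 difference of -1.46. Prdx1 had 28.75, 28.53 and 13.59 FPKM (-1.02), and Gclm, for glutathione synthesis, had 28.62, 26.66 and 16.82 (-0.68). The other 3, Prdx3, Gclc and Prdx4, had log2 differences of -0.91, -0.82 and -0.54. Of the 19 genes, 16 were below both controls by any amount (41.9% of all genes) and 3 above both (38.9%). The list also holds the granule peroxidase gene Mpo, named after its values were seen, with 26.61, 32.13 and 35.44 FPKM. Its log2 difference of 0.27 was the highest of the list. The 3 most abundant ROS enzymes of the list were not called. Prdx5 had 1395.81, 1433.45 and 1392.15 FPKM, a log2 difference of -0.02. Gpx1, a glutathione peroxidase, had 695.19, 706.06 and 545.71 FPKM and was at 77.9% of the control mean, below both controls (-0.36). Gsr, which regenerates glutathione with NADPH, had 660.21, 610.55 and 686.65 FPKM (0.11). Erythroid and macrophage markers were lower in the same library, and their part in the ROS enzymes was not tested. The difference between the oxidase genes and the ROS enzymes was not tested either.

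**Figure D4:**
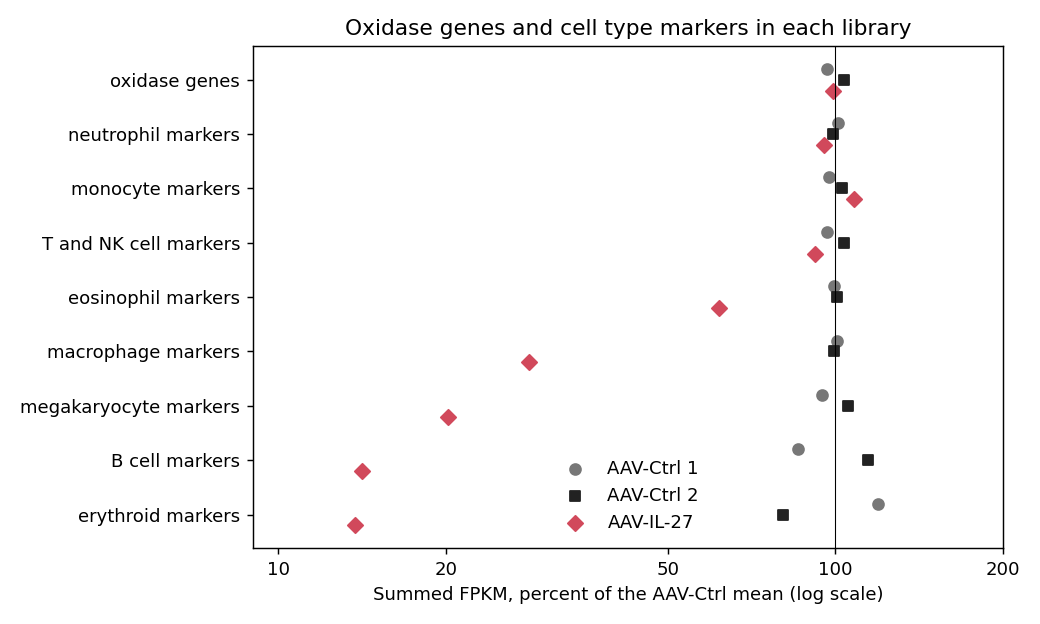
Summed FPKM of the 7 oxidase genes and of 8 marker lists in each library, as a percentage of the control mean on a log axis. The oxidase sum in the IL-27 library is at 99.1%. Neutrophil markers (a sum made up mostly of S100a9 and S100a8) are at 95.4% and monocyte markers (mostly Ly6c2) at 108%. Macrophage, megakaryocyte, B cell and erythroid markers lie between 13.7% and 28.2%.

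Transcripts of other blood cells differed between the libraries while the oxidase genes stayed near the controls. Macrophages also carry the oxidase, and 11 of 12 macrophage markers were called lower (7.01% of all genes), with a summed FPKM of 833 and 823 in the controls and 233 in the IL-27 library, or 28.2% of the control mean. The 10 erythroid markers, all called lower, summed to 20502, 13842 and 2355 FPKM, and the globin gene Hba-a1 led them. Megakaryocyte markers, such as Ppbp, stood at 20.1% of the control mean, eosinophil markers at 61.8%, and markers of T and NK cells at 91.9%. Markers within these 3 lists did not all move alike. Of those tested, 4 of 6 megakaryocyte, 2 of 4 eosinophil and 1 of 3 T and NK cell markers were called lower (7.01% of all genes). None was called higher (1.57%). Among eosinophil markers, Ccr3 was called lower (14.39, 12.92 and 2.16 FPKM), while Siglecf was above both controls (9.49, 7.44 and 12.36). Monocyte markers summed to 1120, 1184 and 1243 FPKM, most of it Ly6c2 (1023, 1086 and 1145). Of 7 tested monocyte markers 1 was called higher (Fn1, 1.71, 2.01 and 4.37 FPKM) and 1 lower (Ly86, 9.18, 11.81 and 5.22 FPKM), against 1.57% and 7.01% of all genes, and the median log2 difference was 0.46. No marker in these lists was listed at 0 in any library. Neutrophil markers, none of which was called, summed to 95.4% of the control mean, and the oxidase genes to 99.1%. Most of the neutrophil sum was S100a9 and S100a8. By any amount, 7 of the 12 neutrophil markers were below both controls (41.9% of all genes) and 2 above both (38.9%). Ly6g, the sort marker, named after its values were seen, was below both, with 711.76, 766.11 and 586.29 FPKM and a log2 difference of -0.33. What macrophages add to the oxidase values was not tested.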

How the data were processed

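RNA-seq of sorted BM Ly6G+ cells was analysed for 2 AAV-Ctrl libraries and 1 AAV-IL-27 library, grouped by their sample titles. mRNA was enriched with oligo-dT, marked for strand with dUTP and sequenced on DNBSEQ. The authors deposited FPKM values for 16073 rows, 1 of which has no symbol and was left out. The build named in the submitters' processing notes is mm10. The aligner, the counting tool and the filter on genes are not given in the sources used here. The table holds 1 further column of per-sample values that matches no listed sample, and it was not used. The members and gene lists were chosen with earlier results of these data known.

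Differences were computed on log2(FPKM + 1), and a call needed 0.5 log2 units from both AAV-Ctrl libraries. No test was run, because the AAV-IL-27 group has 1 library that matches a listed sample. Named genes are the 7 oxidase genes, called genes of each list, the most abundant genes of a list where fewer than 3 were called, and for Ncf4 the 3 genes nearest in Euclidean distance. At most 4 genes of a list were to be named, which the 7 called ROS genes, Prdx5, Gpx1, Gsr and Mpo exceed. Genes named after their values were seen are marked. Some genes of the lists are not reported by name.

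Depth was fitted on the low end of the FPKM scale, over 10787 genes for which the table names 1 RefSeq accession matched in GENCODE M21, 70 nt being subtracted from each length. Of 598, 583 and 584 values, 78.8%, 78.2% and 76.5% fell within 0.2 of a whole fragment, so numbers of fragments are approximate and were not used in a count model. Of the 16072 gene numbers, 16035 matched RefSeq. Calls and depth were tried on simulated libraries that held counting error only and the same 70 nt offset. That trial therefore says nothing about calls under the spread between mice. Scripts ran in Python 3.11.15 with scipy 1.17.1, pandas 2.3.3, numpy 2.4.6 and, for plots, matplotlib 3.10.9. Alternatives were pseudocounts of 0.1 and 0.01, other filters, thresholds and scalings, and leaving out each AAV-Ctrl library.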

Additional observations from a re-analysis of the deposited data

How the results depend on the processing

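No oxidase gene was called under any of the alternatives run: pseudocounts of 0.1 and 0.01, equal FPKM totals, median ratios, no filter on low values or a mean FPKM of at least 5, thresholds of 1 and 0.25, leaving out either AAV-Ctrl library, and, added after the data were seen, equal totals without haemoglobin genes. With equal FPKM totals, which shifted all genes by a median of 0.04, Rac1 reached 0.0678. The sign of Ncf1 turned under that scaling, to 0.02. When control 1 or control 2 was left out, the differences of Cybb (0.08 and -0.01), Cyba (-0.01 and 0.08), Ncf1 (-0.15 and 0.10) and Hvcn1 (-0.06 and 0.08) had opposite signs, as follows from a value inside the control pair, while those of Ncf4 (-0.14 and -0.04), Rac2 (-0.08 and -0.01) and Rac1 (0.05 and 0.002) kept theirs.

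Over all genes, the 143 higher genes became 28 at a threshold of 1 and 581 at 0.25, and between 223 and 235 without a control library, where calls rest on a single control. The 640 lower genes became 212 at a threshold of 1, 1336 at 0.25 and 220 with the filter set to a mean of 5 FPKM. Without control 1 or control 2 they became 881 and 717. Pseudocounts of 0.1 and 0.01 gave 897 and 931 lower genes and 201 and 211 higher genes. The shares of 7.01% and 1.57% printed beside the list counts hold for the main setting only. At a threshold of 1, 3 of the 7 lower ROS genes were called, and the lower gene of NADPH supply was lost (0) at that threshold and under the stricter filter. With equal totals the medians of assembly genes and of triggering receptors were 0.0743 and 0.0669, and the NADPH supply median ranged from -0.164 to -0.0621 without a control library. The ratios of Cyba to Cybb, Ncf1 to Ncf4 and Rac2 to Rac1 moved by less than the control SD with a pseudocount of 1. No paired analysis was made, because the sample titles number the libraries but name no pairs of mice. Replicate number 2 occurs in both groups, which does not by itself mark a pair. The list of other oxidases gave no median, since none of its genes passed the filter. Only 1 IL-27 library was used, so the spread of that group is unknown here.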
